A study of Mus musculus with 6 samples.

Results

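The genes described here are 28 members of cholesterol synthesis and its control by SREBP2, out of 24489 gene entries measured in mouse liver. They were taken by symbol: 20 enzymes of the route from acetyl-CoA to cholesterol, 6 genes of SREBP2 and the proteins that hold back or cleave it, and 2 genes of sterol handling. Each symbol matched 1 entry, and all 28 passed the filter on low counts that 13819 entries passed. The route as described is not complete, since some of its genes are not analysed here. The libraries were made from polyadenylated RNA of a liver lobe taken at postnatal day 10 from untreated pups on a mixed C3H/C57bl6J background, 3 of genotype Jag1+/+ and 3 of genotype Jag1Ndr/Ndr. Jag1 encodes a ligand of Notch receptors, Ndr (Nodder) is a missense allele carried in every cell, and homozygous mice lack a normal intrahepatic bile duct tree and serve as a model of Alagille syndrome. The labels do not say that each library came from a separate pup, so the p-values measure the spread between these libraries, part of which may be technical.

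Cells build cholesterol from acetyl-CoA. Condensation of acetyl-CoA units leads to mevalonate, which is phosphorylated and decarboxylated to isoprene units. These are joined to farnesyl diphosphate, paired to squalene, oxidised and closed to the sterol lanosterol, which a series of demethylations, reductions and isomerisations turns into cholesterol. SREBP2, made from Srebf2, is a transcription factor held in the endoplasmic reticulum by Scap and the Insig proteins while sterol is plentiful; when sterol runs low it moves to the Golgi, is cut by a pair of proteases and switches on the genes of the route. The liver is a main site of this synthesis, and it disposes of cholesterol by secreting it into bile and by converting it to bile acids.

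Depth ranged from 12992592 to 59653111 reads per library. Albumin (Alb) took 16.9% to 17.3% of reads in Jag1+/+ and 10.3% to 13.03% in Jag1Ndr/Ndr libraries. Xist and Y-linked reads showed Jag1+/+ replicate 1 and Jag1Ndr/Ndr replicates 2 and 3 to be female and the others male, so Jag1Ndr/Ndr replicate 1 was the only male of its genotype. Levels of single genes are given in CPM, read counts scaled to a common library size (TMM). Changes are folds of Jag1Ndr/Ndr over Jag1+/+, tested two-sided by the quasi-likelihood method of edgeR; p-values were adjusted by Benjamini-Hochberg over all 13819 genes, with a threshold of 0.05. A value after ± beside a log2 fold change is its standard error. Where a 95% confidence interval of a fold is given, it comes from the same fit. In bulk tissue, fewer cells of a type and less RNA per cell cannot be told apart.

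Of the 28 genes, 18 rose in Jag1Ndr/Ndr livers, 0 fell and 10 did not pass. Over all genes tested, 4.73% were called higher and 2.90% lower, 7.63% together. Higher genes were 62.0% of these calls, 74.3% on library totals and 79.3% on log2 RPKM at pseudocount 1, where the median log2 fold change of all genes stood at 0.13 and 0.18. All 18 that rose were among the 20 members whose libraries of the 2 genotypes did not overlap, which held for 29.0% of all genes. Of the 28 genes, 12 were called higher with a fold of at least 4, which held for 1.50% of all genes tested. Among the genes called higher, that size was reached by 12 of the 18 members and by 207 of 653 over the whole table. The median log2 fold change was 1.24 over the 28 genes, 2.11 over the 20 enzymes and 0.00 over all genes tested. The enzymes carried most of the calls, 16 of 20, while 2 of the 6 SREBP2 regulators rose and neither of the sterol handling genes did. With sex as a covariate the number that rose was 18. Without Jag1+/+ replicates 1, 2 and 3 in turn it was 11, 12 and 13.

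**Figure D1:**
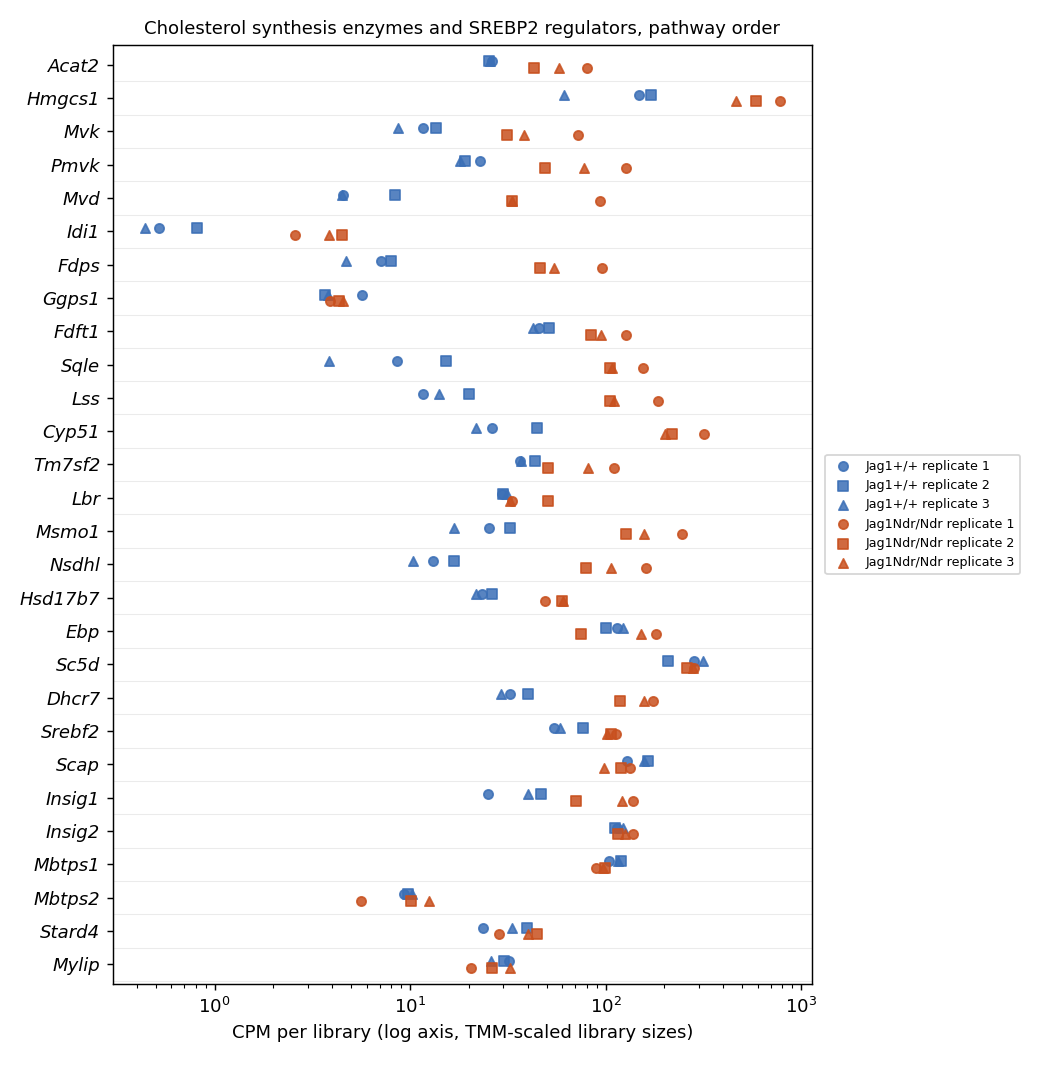
Each point is 1 library's CPM (log axis) for the 28 genes in pathway order, blue for Jag1+/+ and orange for Jag1Ndr/Ndr, with the marker shape giving the replicate number. For Sqle the Jag1Ndr/Ndr libraries lie between 106 and 156 CPM and the Jag1+/+ libraries between 3.85 and 15.3, whereas for Sc5d, Insig2 and Ggps1 the colours overlap.

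Both genes of the first steps rose. Acat2, the cytosolic thiolase that joins acetyl-CoA units, measured 26.2, 25.4 and 25.6 CPM in Jag1+/+ replicates 1, 2 and 3 and 80.0, 43.2 and 58.1 CPM in Jag1Ndr/Ndr replicates 1, 2 and 3. The Jag1+/+ libraries were nearly alike and the lowest Jag1Ndr/Ndr library lay above all of them. Acat2 rose 2.34-fold (log2 fold change 1.23 ± 0.22 SE, edgeR adjusted p = 0.0149). On the longest GENCODE transcript of Acat2, 45.9% of 50-base words also occur in transcripts of its neighbours Acat3 and Tcp1, so reads there could be split or shared. Acat3 and Tcp1 had log2 fold changes of -0.08 and -0.12 and did not pass (edgeR adjusted p = 0.856 and 0.697). Hmgcs1, the cytosolic synthase that makes HMG-CoA, measured 147, 171 and 61.0 CPM in Jag1+/+ and 783, 586 and 463 CPM in Jag1Ndr/Ndr replicates 1, 2 and 3. Jag1+/+ replicate 3 was the lowest library and stood apart from the others of its genotype, and the genotypes did not overlap. Hmgcs1 rose 4.82-fold (2.27 ± 0.39, edgeR adjusted p = 0.0130), and 13.6% of its 50-base words are shared with Gm48342. Acat2 lost its call when any 1 of the 3 Jag1+/+ libraries was left out (edgeR adjusted p from 0.0686 to 0.0808), and Hmgcs1 without Jag1+/+ replicate 1 (0.0567).

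From mevalonate to farnesyl diphosphate 5 of 6 genes rose, and the gene of the side branch did not pass. Mvk, mevalonate kinase, measured 11.7, 13.6 and 8.68 CPM in Jag1+/+ and 71.9, 31.4 and 38.2 CPM in Jag1Ndr/Ndr replicates 1, 2 and 3, a 4.15-fold rise (edgeR adjusted p = 0.0106). Pmvk, which adds the next phosphate, measured 22.9, 19.1 and 17.9 against 127, 49.1 and 77.6 CPM, a 4.23-fold rise (edgeR adjusted p = 0.00954). Mvd, which decarboxylates the product to isopentenyl diphosphate, measured 4.51, 8.34 and 4.47 against 93.6, 33.1 and 33.2 CPM, a 9.12-fold rise (edgeR adjusted p = 0.00841). In all of these genes Jag1Ndr/Ndr replicate 1 was the highest library and no Jag1Ndr/Ndr library reached down to a Jag1+/+ library. Mvk lost its call without Jag1+/+ replicate 1 (edgeR adjusted p = 0.0542) and Pmvk without Jag1+/+ replicate 2 (0.0536).

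Idi1, which interconverts the isoprene isomers, was counted at low levels, with 9, 25 and 17 reads in Jag1+/+ and 29, 319 and 72 reads in Jag1Ndr/Ndr replicates 1, 2 and 3. In CPM these were 0.521, 0.811 and 0.439 against 2.57, 4.47 and 3.84, and here Jag1Ndr/Ndr replicate 1 was the lowest of its genotype. Idi1 rose 6.19-fold (95% interval 3.48 to 10.98, edgeR adjusted p = 0.00670). Of its 50-base words 30.5% also occur in other genes' transcripts, among them predicted genes such as Gm13502, so reads could be split between them. Fdps, farnesyl diphosphate synthase, measured 7.12, 8.01 and 4.70 CPM in Jag1+/+ and 95.7, 46.0 and 54.7 CPM in Jag1Ndr/Ndr replicates 1, 2 and 3. Its lowest Jag1Ndr/Ndr library stood 5.74-fold above its highest Jag1+/+ library. Fdps rose 9.91-fold (95% interval 5.86 to 16.7, edgeR adjusted p = 0.00240), and 11.7% of its 50-base words are shared with other genes' transcripts.

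Ggps1 marks the branch that leaves the route: its enzyme extends farnesyl to geranylgeranyl diphosphate, used to anchor proteins in membranes. It measured 5.67, 3.67 and 3.80 CPM in Jag1+/+ and 3.90, 4.33 and 4.53 CPM in Jag1Ndr/Ndr replicates 1, 2 and 3. The genotypes overlapped throughout. Ggps1 had a fold of 0.981 with a 95% interval of 0.659 to 1.46 (edgeR adjusted p = 0.967), an interval that does not reach the rises of the farnesyl enzymes. Other genes' transcripts share 11.8% of its 50-base words. Of 15 genes that use isoprenoids outside sterol synthesis (dolichol and ubiquinone synthesis, prenylation and its processing), 0 rose and 1 fell, Rabggta, a subunit of the enzyme that prenylates Rab proteins. Calls over all genes tested were 4.73% higher and 2.90% lower. Rabggta fell 1.68-fold (edgeR adjusted p = 0.0211), its CPM being 38.3 ± 2.16 in Jag1+/+ and 22.8 ± 2.71 in Jag1Ndr/Ndr (SD, n = 3). It lost its call when 1 library was left out, be it any Jag1+/+ library or Jag1Ndr/Ndr replicate 3 (adjusted p up to 0.113), with library totals in place of TMM and in the deposited RPKM. The median log2 fold change of these 15 genes was -0.03.

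Squalene formation and ring closure held the largest rise of the members. Fdft1, squalene synthase and the point of commitment to sterols, measured 45.6, 51.6 and 42.7 CPM in Jag1+/+ and 128, 83.8 and 94.8 CPM in Jag1Ndr/Ndr replicates 1, 2 and 3, a 2.19-fold rise (1.13 ± 0.19, edgeR adjusted p = 0.0124). Of its 50-base words 30.7% are shared with Gm6781 or the neighbouring Ctsb, which did not pass (log2 fold change 0.12, edgeR adjusted p = 0.783), and without strand such reads cannot be told apart. Fdft1 lost its call when any 1 of the 3 Jag1+/+ libraries was left out (edgeR adjusted p from 0.0549 to 0.0750).

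Sqle, squalene epoxidase (chromosome 15, positions 59315092 to 59331193 of GRCm38), is a rate-limiting oxygen-dependent step. It measured 8.57, 15.3 and 3.85 CPM in Jag1+/+ and 156, 106 and 108 CPM in Jag1Ndr/Ndr replicates 1, 2 and 3. The Jag1+/+ libraries spread widely, yet the lowest Jag1Ndr/Ndr library was 6.92-fold above the highest of them, the widest such gap among the members that rose. Sqle rose 13.3-fold (95% interval 6.39 to 27.8, log2 fold change 3.74 ± 0.46, edgeR adjusted p = 0.00435). Lss, which closes the ring to lanosterol, measured 11.6, 20.1 and 14.05 CPM in Jag1+/+ and 186, 105 and 110.5 CPM in Jag1Ndr/Ndr replicates 1, 2 and 3. Lss rose 8.73-fold (95% interval 5.42 to 14.1). The noncoding gene 4930483K19Rik, which shares 2.90% of the 50-base words of Lss, was higher too, at 3.01, 1.35 and 1.71 against at most 0.357 CPM (edgeR adjusted p = 0.0103), and reads of the pair cannot be told apart by strand.

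**Figure D2:**
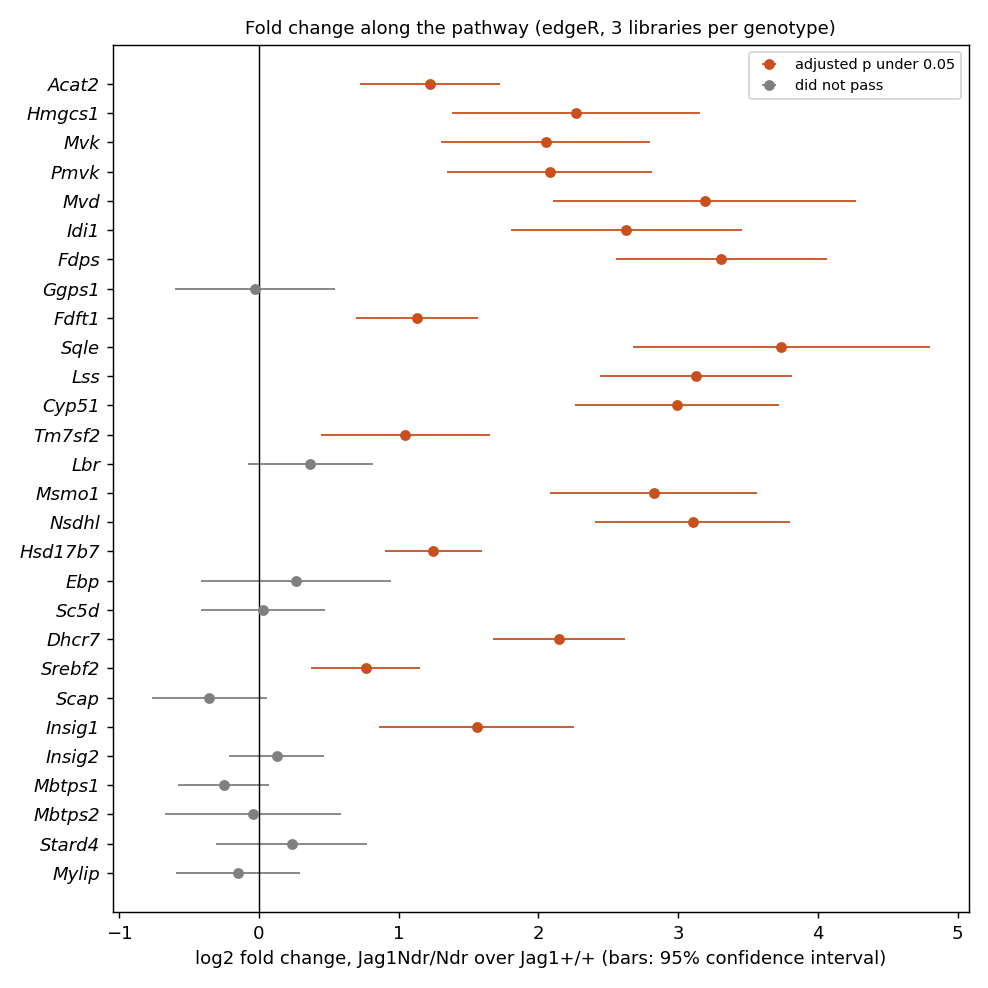
Log2 fold change of each gene, Jag1Ndr/Ndr over Jag1+/+, in pathway order, with 95% confidence intervals from edgeR (3 libraries per genotype); orange passed an adjusted p of 0.05 and grey did not. Sqle lies farthest right at 3.74, followed by Fdps at 3.31, and Ggps1, Lbr, Ebp and Sc5d are the grey points among the enzymes.

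After lanosterol the enzymes divided. Cyp51, the lanosterol demethylase, measured 26.3, 44.6 and 21.7 CPM in Jag1+/+ and 319, 218 and 201 CPM in Jag1Ndr/Ndr replicates 1, 2 and 3, a 7.97-fold rise (edgeR adjusted p = 0.00300). Msmo1, which oxidises the methyl groups at the next carbon to be cleared, measured 25.4, 32.5 and 16.8 against 246, 127 and 156 CPM, a 7.08-fold rise (edgeR adjusted p = 0.00353). Nsdhl, the dehydrogenase that acts with it, measured 13.1, 16.9 and 10.4 against 161, 79.1 and 107 CPM, an 8.59-fold rise (edgeR adjusted p = 0.00238). Each of these demethylation genes kept its genotypes at least 3.91-fold apart. Hsd17b7, the ketoreductase of the same complex, rose as well: 23.4, 26.2 and 21.7 CPM in Jag1+/+ against 49.3, 59.8 and 60.2 CPM in Jag1Ndr/Ndr replicates 1, 2 and 3, a 2.38-fold rise with the smallest standard error of the members that rose (1.25 ± 0.15, edgeR adjusted p = 0.00409). In the deposited RPKM its Jag1Ndr/Ndr libraries lay farther apart, at 7.68, 20.4 and 16.2, and the call was lost at pseudocount 1 (limma adjusted p = 0.0622).

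Tm7sf2 and Lbr encode enzymes that reduce the same sterol double bond; Lbr is also the lamin B receptor of the inner nuclear membrane. Tm7sf2 measured 36.4, 43.5 and 37.1 CPM in Jag1+/+ and 110.2, 50.6 and 81.7 CPM in Jag1Ndr/Ndr replicates 1, 2 and 3, and Jag1Ndr/Ndr replicate 2 lay only 1.16-fold above the highest Jag1+/+ library. Its 2.07-fold rise was just past the threshold (edgeR adjusted p = 0.0498). It lost its call without Jag1+/+ replicate 1, 2 or 3 or Jag1Ndr/Ndr replicate 1 or 3 (adjusted p from 0.0746 to 0.184) and with RLE factors in place of TMM (0.0527). Lbr measured 29.7, 29.8 and 31.3 against 33.3, 50.9 and 32.6 CPM, with a fold of 1.29 (95% interval 0.949 to 1.76, edgeR adjusted p = 0.313). Dnah14 shares 11.3% of the 50-base words of Lbr. Within each library the ratio of Tm7sf2 to Lbr reads, which no library scaling affects, was 1.23, 1.46 and 1.18 in Jag1+/+ and 3.31, 0.996 and 2.50 in Jag1Ndr/Ndr replicates 1, 2 and 3. These ratios overlapped between genotypes (exact permutation test, two-sided, p = 0.40, where 0.10 is the smallest that 3 against 3 libraries can give).

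Of the last steps, Dhcr7 rose and Ebp and Sc5d did not pass. Ebp, the isomerase that shifts the ring double bond, measured 114, 101 and 123 CPM in Jag1+/+ and 181, 74.9 and 152 CPM in Jag1Ndr/Ndr replicates 1, 2 and 3. Jag1Ndr/Ndr replicate 2 was below and the other libraries of that genotype above the whole Jag1+/+ range. The fold of Ebp was 1.20 (95% interval 0.751 to 1.93, edgeR adjusted p = 0.672). Sc5d, the lathosterol desaturase, measured 284, 208 and 314 against 283, 262 and 279 CPM, with the Jag1Ndr/Ndr libraries inside the Jag1+/+ range. Its fold was 1.02 (95% interval 0.750 to 1.39, edgeR adjusted p = 0.956). Dhcr7, the reductase of the closing step, measured 32.5, 39.97 and 29.1 CPM in Jag1+/+ and 176, 118 and 157 CPM in Jag1Ndr/Ndr replicates 1, 2 and 3. It rose 4.43-fold (2.15 ± 0.21, edgeR adjusted p = 0.00227). Nsdhl, Ebp and the regulator Mbtps2 are the 3 members on chromosome X; with sex as a covariate Nsdhl was called higher and the other 2 were not.

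Levels between genes can be compared per length in the deposited RPKM. Between genotypes they are less sure: the median log2 fold change of all genes was 0.18 in log2 RPKM (pseudocount 1), against 0.00 in edgeR. In Jag1+/+ livers Sc5d (112 ± 22.8 RPKM, mean ± SD, n = 3) and Ebp (60.8 ± 6.10 RPKM) had the highest levels of the 20 enzymes, and these did not pass. Sqle (3.15 ± 1.96 RPKM), Mvd (3.05 ± 1.19), Fdps (4.67 ± 1.16) and Lss (4.90 ± 1.39), which had the 4 largest log2 fold changes, ranked 17, 18, 16 and 14 by Jag1+/+ level. Their Jag1Ndr/Ndr levels were 49.5 ± 9.85, 30.0 ± 7.41, 51.9 ± 2.48 and 49.3 ± 5.86 RPKM, above the Jag1+/+ levels of most other enzymes. Msmo1 reached 103 ± 6.52 RPKM and Hmgcs1 193 ± 57.2 RPKM in Jag1Ndr/Ndr livers, next to 141 ± 46.8 RPKM of Sc5d. The spread within Jag1Ndr/Ndr depended on the scaling: in CPM Msmo1 was 176 ± 61.7 and Fdps 65.5 ± 26.5 (SD, n = 3). Other enzymes did not follow this order. Ggps1 and Idi1 ranked 19 and 20 by Jag1+/+ level but 20 and 8 by log2 fold change, and Hmgcs1 ranked 3 and 9. A low Jag1+/+ level enters both sides of such an ordering, so it is a description only.

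The 20 enzymes together took 0.0863%, 0.0839% and 0.0758% of reads in Jag1+/+ replicates 1, 2 and 3 and 0.285%, 0.255% and 0.244% in Jag1Ndr/Ndr replicates 1, 2 and 3. The summed TMM-scaled level was 877, 879.6 and 793 CPM in Jag1+/+ and 3285, 2132 and 2272 CPM in Jag1Ndr/Ndr libraries, a ratio of means of 3.02. With library totals in place of TMM the ratio was 3.19, and in the deposited RPKM 3.30. Jag1+/+ libraries differed little in this sum although single enzymes varied more: Sqle ranged from 3.85 to 15.3 CPM among them. Abundant genes weigh most in it. Sc5d and Ebp, which did not pass, had means of 269 and 113 CPM in Jag1+/+, where the sum averaged 850 CPM. Without Hmgcs1 the ratio of means in TMM-scaled CPM was 2.70.

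**Figure D3:**
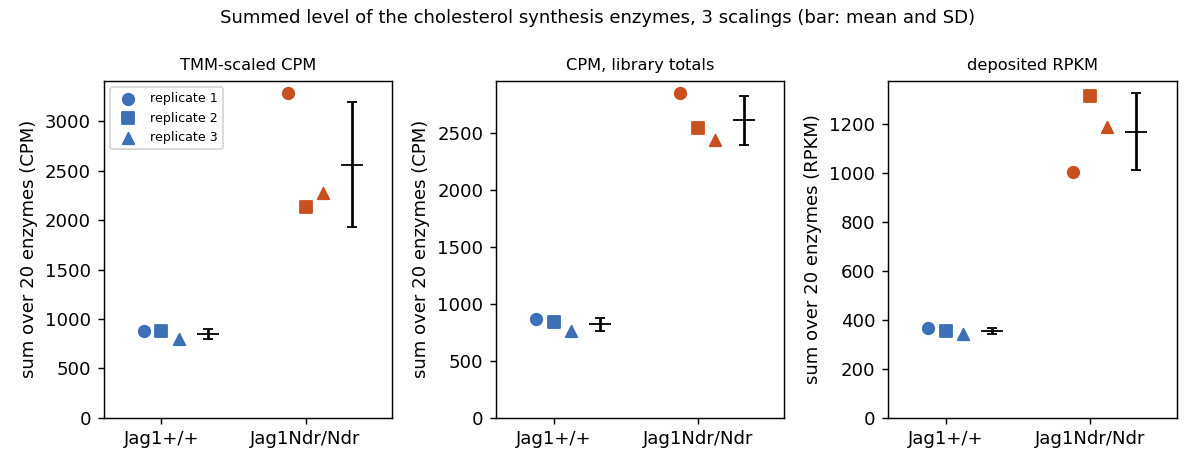
Summed level of the 20 enzymes in each library under TMM-scaled CPM, CPM on library totals and deposited RPKM, with the mean and SD of each genotype (n = 3) beside the points. All panels part the genotypes, and the highest Jag1Ndr/Ndr library is replicate 1 in CPM (3285) but replicate 2 in deposited RPKM (1317).

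Which Jag1Ndr/Ndr library was highest depended on the scaling. In TMM-scaled CPM, replicate 1 was the highest of its genotype for 16 of the 18 genes that rose and replicate 2 the lowest for 13. On library totals replicate 1 was the highest for 12. In the deposited RPKM replicate 1 was the lowest for 14 and replicate 2 the highest for 10. The TMM factors by which edgeR divides were 0.869, 1.20 and 1.07 for replicates 1, 2 and 3, and the factors in the file, by which the RPKM were multiplied, were 0.796, 1.28 and 1.10. The deposited RPKM thus carry their factors in the opposite direction to the division in edgeR. Library totals, which carry no factor, also had replicate 1 highest for most of the 18 genes. The order of the Jag1Ndr/Ndr libraries was therefore reversed only in the deposited RPKM, while the 18 genes kept their 2 genotypes apart in CPM. Within the Jag1+/+ libraries, whose factors lay close together (0.953 to 0.984 by TMM), replicate 2 was the highest for 16 of the 18 genes and replicate 3 the lowest for 13.

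By sex, the female libraries gave Sqle at 8.57 CPM in Jag1+/+ replicate 1 against 106 and 108 in Jag1Ndr/Ndr replicates 2 and 3, and the male libraries 15.3 and 3.85 in Jag1+/+ replicates 2 and 3 against 156 in Jag1Ndr/Ndr replicate 1. Same-numbered libraries, set side by side, gave Jag1Ndr/Ndr over Jag1+/+ log2 ratios above 0 in all 3 numbers for 17 of the 20 enzymes, and medians over the enzymes of 2.42, 1.46 and 2.28 for numbers 1, 2 and 3.

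Among the regulators, the transcription factor gene and 1 of its retention factors rose. Srebf2 measured 54.4, 76.3 and 58.8 CPM in Jag1+/+ and 113, 107 and 102 CPM in Jag1Ndr/Ndr replicates 1, 2 and 3, a 1.70-fold rise (95% interval 1.30 to 2.22, edgeR adjusted p = 0.0332). All Jag1Ndr/Ndr libraries lay above all Jag1+/+ libraries. They were close together in CPM but not in the deposited RPKM, at 17.7, 36.4 and 27.3. Srebf2 lost its call when 1 library was left out, be it any Jag1+/+ library or Jag1Ndr/Ndr replicate 2 or 3 (edgeR adjusted p from 0.0501 to 0.160), and in the deposited RPKM (limma adjusted p = 0.120 and 0.124 with pseudocounts of 0.1 and 1). Insig1, an anchor that retains SREBP2 and is itself a known SREBP target, measured 25.0, 46.7 and 40.01 CPM in Jag1+/+ and 138, 70.6 and 121 CPM in Jag1Ndr/Ndr replicates 1, 2 and 3. Insig1 rose 2.94-fold (95% interval 1.82 to 4.77, edgeR adjusted p = 0.0211). It lost its call when 1 library was left out, be it any Jag1+/+ library or Jag1Ndr/Ndr replicate 3 (adjusted p from 0.0519 to 0.0781).

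Insig2, the related anchor, measured 114, 112 and 122 CPM in Jag1+/+ and 138, 116 and 125 CPM in Jag1Ndr/Ndr replicates 1, 2 and 3. The genotypes overlapped, with a fold of 1.09 (95% interval 0.864 to 1.38, edgeR adjusted p = 0.689). The ratio of Insig1 to Insig2 reads was 0.219, 0.418 and 0.328 in Jag1+/+ and 1.00, 0.609 and 0.963 in Jag1Ndr/Ndr replicates 1, 2 and 3. These ratios did not overlap and were 2.69-fold higher in Jag1Ndr/Ndr (exact permutation test, two-sided, p = 0.10, the smallest that 3 against 3 allows). In Jag1+/+ livers Insig2 thus took most of the Insig reads, and in Jag1Ndr/Ndr replicates 1 and 3 the pair was nearly even.

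The proteins that carry and cut SREBP2 did not pass. Scap, the sterol-sensing escort, measured 129, 165 and 157 CPM in Jag1+/+ and 134, 120 and 98.6 CPM in Jag1Ndr/Ndr replicates 1, 2 and 3, with a fold of 0.781 (95% interval 0.588 to 1.04, edgeR adjusted p = 0.292); 13.1% of its 50-base words are shared with the noncoding 5830462I19Rik. Mbtps1, the protease of the first cut, measured 104, 119.7 and 115 against 89.0, 98.8 and 97.1 CPM. Its Jag1Ndr/Ndr libraries all lay below the Jag1+/+ libraries, with a fold of 0.840 (95% interval 0.670 to 1.05, edgeR adjusted p = 0.351). Mbtps2, the protease of the second cut, measured 9.26, 9.77 and 10.3 against 5.58, 10.2 and 12.5 CPM, and its fold was 0.970 (95% interval 0.627 to 1.50, edgeR adjusted p = 0.953). Of 21 genes of SREBP transport from the endoplasmic reticulum and of sterol-regulated protein turnover, edgeR called 0 higher and 0 lower (2 at an unadjusted p under 0.05), with a median log2 fold change of -0.13. Over all 13819 genes tested, 4.73% were called higher and 2.90% lower, and 3113 had an unadjusted p under 0.05.

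The 2 sterol handling genes did not pass either. Stard4, a cytosolic sterol carrier, measured 23.5, 39.7 and 33.03 CPM in Jag1+/+ and 28.4, 44.5 and 40.1 CPM in Jag1Ndr/Ndr replicates 1, 2 and 3, with a fold of 1.18 (95% interval 0.809 to 1.71, edgeR adjusted p = 0.635). Mylip, a ubiquitin ligase that LXR induces and that removes lipoprotein receptors, measured 32.1, 30.2 and 25.9 against 20.4, 26.3 and 32.6 CPM. Its fold was 0.901 (95% interval 0.662 to 1.23, edgeR adjusted p = 0.721). Both genes had overlapping genotypes. The interval of Stard4 reaches the 1.70-fold of Srebf2, a member that rose, and overlaps the 95% interval of Fdft1 (1.62 to 2.96).

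Promoters of the members are shown for what they hold near the start site, since many of these genes moved together. RefSeq windows of GRCm38.p6, from 250 bases before to 50 bases after a start, were found for 24 of the 28 genes, 15 that rose and 9 that did not pass. They were searched on both strands for TCACNCCAC, a pattern of the sterol regulatory element that SREBPs bind, for CCAAT, the pattern of NF-Y, and for GGGCGG, that of Sp1, the usual partners of SREBPs. No window was found for Sqle, Fdps, Fdft1 and Stard4, so the motif counts leave out Sqle and Fdps, the members with the largest folds. The Hmgcs1 window held the only exact match to the sterol pattern among the genes with a window. In the lines below, only bases before the start are given, 5′ to 3′ on the gene's strand, and capitals mark matches to the sterol pattern, with at most 1 mismatch, and to CCAAT or its complement. Hmgcs1 is shown for its exact match; Srebf2 and Cyp51, which rose, and Ebp, which did not pass, were chosen after their values were seen.
Hmgcs1 (chr13:119690101-119690350, + strand): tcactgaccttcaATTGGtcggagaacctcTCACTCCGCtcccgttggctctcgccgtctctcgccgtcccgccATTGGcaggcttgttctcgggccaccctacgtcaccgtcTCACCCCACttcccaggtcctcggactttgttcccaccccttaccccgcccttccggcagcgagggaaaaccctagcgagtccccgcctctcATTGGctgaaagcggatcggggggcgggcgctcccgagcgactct
Srebf2 (chr15:82147069-82147268, + strand): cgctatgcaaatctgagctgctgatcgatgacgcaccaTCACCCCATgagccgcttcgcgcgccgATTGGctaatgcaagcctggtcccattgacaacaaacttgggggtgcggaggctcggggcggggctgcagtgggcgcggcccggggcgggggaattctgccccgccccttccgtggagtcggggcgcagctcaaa
Cyp51 (chr5:4104698-4104847, - strand): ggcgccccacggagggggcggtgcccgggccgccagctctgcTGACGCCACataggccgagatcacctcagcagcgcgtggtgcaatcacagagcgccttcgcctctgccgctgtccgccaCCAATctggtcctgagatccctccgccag
Ebp (chrX:8193513-8193692, - strand): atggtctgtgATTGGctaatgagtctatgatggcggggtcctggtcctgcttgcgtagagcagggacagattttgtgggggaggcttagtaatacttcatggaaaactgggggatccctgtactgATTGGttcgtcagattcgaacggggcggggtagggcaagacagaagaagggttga

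Counted back from the start, the exact match of Hmgcs1 covers positions -137 to -129, and a match with 1 mismatch covers -220 to -212. The match of Srebf2 covers -162 to -154 and that of Cyp51 -108 to -100, each with 1 mismatch. Ebp has none, though its printed window holds CCAAT at -170 and -55 on the other strand. The sterol pattern with no mismatch was in the windows of 1 of the 24 members (4.17%) and of 1.46% of 10381 tested genes with a window. With 1 mismatch allowed it was in those of 11 (45.8%) and of 29.3% of tested genes. The 11 were 9 of the 15 that rose and 2 of the 9 that did not pass. CCAAT was in the windows of 20 members (83.3%) against 42.6% of tested genes, 14 of the 15 that rose and 6 of the 9 that did not. GGGCGG was in those of 21 members (87.5%) against 66.03% of tested genes, 14 of the 15 that rose and 7 of the 9 that did not. Genes with several starts have several windows and so more chance of a match, and a match is a description, not a bound site.

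Other genes of sterol control were taken from lists chosen with earlier results of these data known. Of 10 further SREBP targets tested, 4 rose and 0 fell, with a median log2 fold change of 0.81, and 8 had an unadjusted p under 0.05. Over all 13819 genes tested, 4.73% were called higher and 2.90% lower, and 3113 had an unadjusted p under 0.05. Aacs, which makes acetoacetyl-CoA from the ketone acetoacetate for lipid synthesis, measured 4.98, 7.49 and 5.66 CPM in Jag1+/+ and 58.5, 23.6 and 24.04 CPM in Jag1Ndr/Ndr replicates 1, 2 and 3. Its genotypes did not overlap, and Aacs rose 5.78-fold (edgeR adjusted p = 0.00910). Tmem97, a sterol-regulated membrane protein, rose 1.94-fold (edgeR adjusted p = 0.0242), its CPM being 22.9 ± 1.55 in Jag1+/+ and 44.5 ± 11.1 in Jag1Ndr/Ndr (SD, n = 3). Elovl6 and Fasn, of fatty acid synthesis, also rose (4.60-fold and 3.06-fold). Tmem97 and Fasn lost their calls when any 1 of the 3 Jag1+/+ libraries was left out (edgeR adjusted p up to 0.120 and 0.0899). The fatty acid desaturases Fads1 and Fads2 had log2 fold changes of -0.23 and -0.04 and did not pass.

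Genes that LXR, the nuclear receptor of oxysterols, switches on had calls in the lower direction. Against 2.90% lower and 4.73% higher over all genes tested, 4 of 11 fell and 0 rose. At an unadjusted p under 0.05 the list had 7 genes, these 4 and 3 with higher values that did not pass, Pltp (1.63-fold), Abcg1 (1.37-fold) and Scd1 (4.81-fold), at edgeR adjusted p = 0.0670, 0.101 and 0.0992. Of all 13819 genes tested, 3113 had an unadjusted p under 0.05. Abcg5 and Abcg8 form the transporter that secretes cholesterol into bile. Abcg5 measured 185, 134 and 187 CPM in Jag1+/+ and 58.6, 54.4 and 62.2 CPM in Jag1Ndr/Ndr replicates 1, 2 and 3, and fell 2.89-fold (edgeR adjusted p = 0.00376). Abcg8 measured 186, 169 and 197 against 78.1, 74.6 and 63.8 CPM and fell 2.56-fold (edgeR adjusted p = 0.00365). For both, every Jag1Ndr/Ndr library lay below every Jag1+/+ library; Abcg8 lost its call in the deposited RPKM. Abca1, which exports cholesterol to apolipoproteins, fell 1.65-fold (edgeR adjusted p = 0.0479), a call lost when 1 library was left out, be it any Jag1+/+ library or Jag1Ndr/Ndr replicate 3 (adjusted p up to 0.177), with sex as a covariate, with library totals and in the deposited RPKM. Srebf1, the SREBP gene of fatty acid synthesis, measured 518, 586 and 636 CPM in Jag1+/+ and 211, 131 and 233 CPM in Jag1Ndr/Ndr replicates 1, 2 and 3. It fell 3.02-fold (edgeR adjusted p = 0.00925). The ratio of Srebf2 to Srebf1 reads, set out after these values were seen, was 0.105, 0.130 and 0.0924 in Jag1+/+ and 0.536, 0.814 and 0.436 in Jag1Ndr/Ndr replicates 1, 2 and 3. The list's median log2 fold change was 0.08, and its other 7 genes did not pass. Among these Scd1, a desaturase, measured 50.1, 26.4 and 52.7 against 214, 32.9 and 375 CPM.

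**Figure D4:**
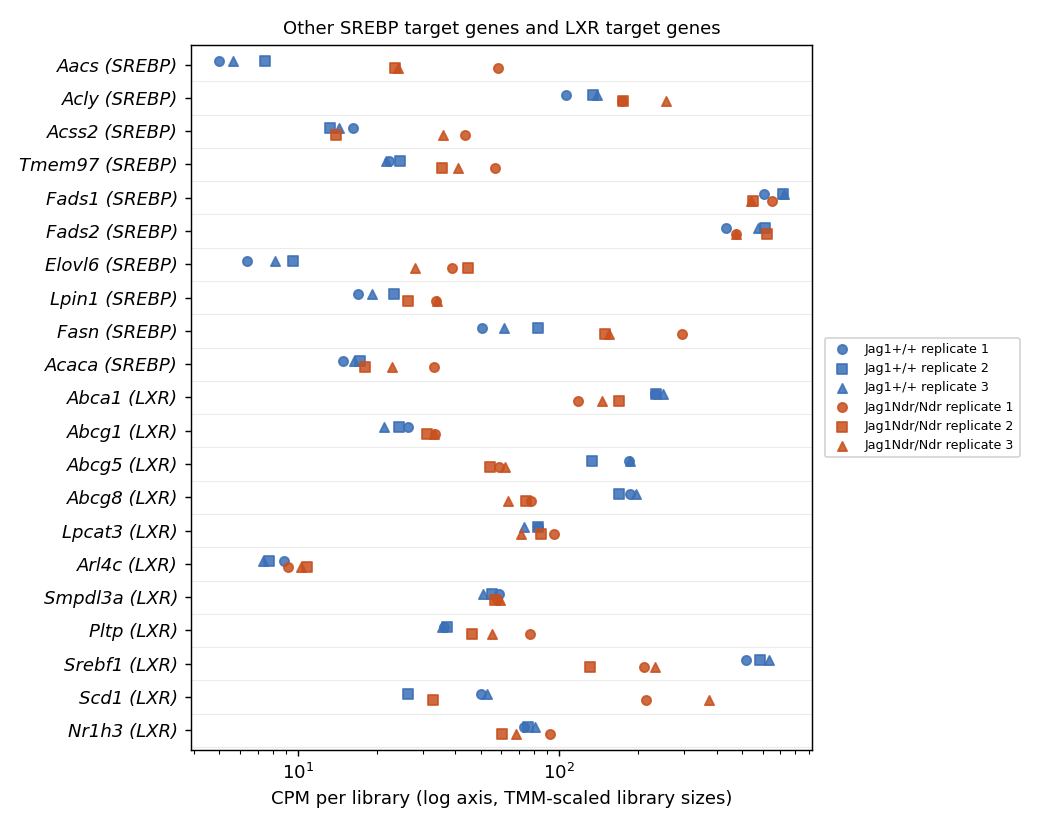
CPM in each library (log axis) of 10 further SREBP target genes and 11 LXR target genes, blue for Jag1+/+ and orange for Jag1Ndr/Ndr, marker shape by replicate number. Aacs and Elovl6 lie to the right in all Jag1Ndr/Ndr libraries, Abcg5, Abcg8 and Srebf1 to the left, and Scd1 is spread from 32.9 to 375 CPM within Jag1Ndr/Ndr.

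Of 8 electron donors and accessory proteins that feed the oxidative steps, edgeR called 0. An unadjusted p under 0.05 was found for 3 of them, and for 3113 of all 13819 genes tested. Por, the reductase that supplies Cyp51 and Sqle, measured 305, 293 and 372 CPM in Jag1+/+ and 353, 276 and 261 CPM in Jag1Ndr/Ndr replicates 1, 2 and 3 (edgeR adjusted p = 0.768). Against 4.73% called higher and 2.90% lower over all genes tested, of 7 genes of factors that act with SREBPs 0 rose and 1 fell. That was Nfyb, a subunit of NF-Y, at 68.8, 53.2 and 51.1 against 27.6, 30.5 and 25.3 CPM. Nfyb fell 2.07-fold (edgeR adjusted p = 0.0101), a call that was lost in the deposited RPKM; the other NF-Y genes Nfya and Nfyc had log2 fold changes of 0.18 and 0.22 and did not pass.

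Other cell types were followed by short marker lists, whose part in the rises was not tested. Over all 13819 genes tested, 4.73% were called higher and 2.90% lower, and 3113 had an unadjusted p under 0.05. In lists this short, 0 or 1 call is therefore not a result about the list. The summed hepatocyte markers ranged from 221464 to 227358 CPM in Jag1+/+ and from 111326 to 196623 CPM in Jag1Ndr/Ndr libraries, with 1 of 8 higher (Hpx) and 1 lower (Ttr). The macrophage sum was 732 to 1211 against 1523 to 2538 CPM, with 2 of 8 higher (Lyz2 and Cd68) and the highest value in Jag1Ndr/Ndr replicate 1. Marco and Cd5l, which had the highest means in Jag1Ndr/Ndr, did not pass (edgeR adjusted p = 0.0579 and 0.0991). The neutrophil sum was 611 to 737 against 1035 to 2300 CPM, with 4 of 7 higher (S100a8, S100a9, Mpo and Elane) and its highest value in Jag1Ndr/Ndr replicate 2. The erythroid sum was 300.2 to 440 against 370.03 to 583 CPM, and Hba-a1 was listed at 0 reads in all libraries. Of the cholangiocyte markers 1 of 7 tested was higher (Cldn4) and their sums overlapped, at 94.6 to 137 and 54.1 to 148 CPM, and Cftr was at most 0.213 CPM. For the stellate cell and endothelial markers edgeR called 0 of 8 each (3 at an unadjusted p under 0.05 in each), with sums of 802 to 1006 against 716 to 1165 CPM and of 561 to 630 against 518 to 551 CPM. Of the lymphocyte markers 1 of 7, Cd79b, was lower, with sums of 75.2 to 94.8 against 43.4 to 98.4 CPM. Each of these marker calls was lost without Jag1+/+ replicate 2, and each without Jag1+/+ replicate 3 (edgeR adjusted p up to 0.157).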

How the data were processed

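Polyadenylated RNA libraries of 6 liver samples, 3 per genotype, were grouped by their titles. The deposited table holds the authors' read counts per RefSeq gene, whole and not normalized. Its RPKM columns were made by the authors and carry the TMM factor of the file headers as a multiplier: RPKM over that factor were proportional to reads over library totals within 5% for 98.2% of values over 10023 genes. Since edgeR divides by such factors, calls kept or lost in the deposited RPKM rest on scaling in the opposite direction. STAR and mm10 are named in the submitters' processing notes, and no counting tool is named there or in the labels. The kit does not mark strand.

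Entries were filtered with filterByExpr (24489 to 13819; besides, 93 spike-in and eGFP entries with 5 reads were left out), scaled by TMM and tested with edgeR 4.0.16 (R 4.3.3). A standard error is the size of a log2 fold change divided by the square root of its F statistic. A count of 0 allows up to 0.231 CPM at the lowest depth and 0.0503 at the highest (3 reads, counting error only, on library totals without TMM). Members, lists and tests were chosen with earlier results of these data known. All 28 members are named, and of each related list the genes past the threshold. Alternatives were DESeq2 1.42.0, RLE factors, library totals, other filters, limma 3.58.1 on log2 RPKM (pseudocounts 1 and 0.1) or with quality weights, robust moderation, a replicate block, sex as a covariate and leaving out each library. The test was tried on simulated data first. It called 29 of 100 planted 2-fold changes and 97 of 100 planted 4-fold changes, and 10 of 13619 genes without a change. Not passing therefore does not by itself exclude a 2-fold change. Shared sequence was searched in GENCODE M21 transcripts, and promoters came from RefSeq. Of the listed genes Ly6g and Ighm matched no entry. The calls of single erythroid markers are not reported here.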

Additional observations from a re-analysis of the deposited data

How the results depend on the processing

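The number of members that rose stayed within 1.5 times of 18 in every alternative run except without Jag1+/+ replicate 1. Without Jag1+/+ replicate 2 it lay at that limit. It was 15 to 18 in the alternatives that kept all libraries or left out a Jag1Ndr/Ndr library. Without Jag1+/+ replicates 1, 2 and 3 in turn it was 11, 12 and 13, so leaving out any Jag1+/+ library cost calls. In every alternative 0 members fell. Of the 18, 10 kept their calls whichever library was left out, and 15 in all 11 other alternatives. The number of genes changed over the whole table moved more, from 1054 to 1890 with DESeq2, 1594 with quality weights, 596 with a sex covariate, 544 and 489 by limma on RPKM at pseudocounts 0.1 and 1, and between 282 and 1211 over the libraries left out in turn. The cause was not tested. At pseudocount 0.1, 78.5% of the RPKM calls were higher and the median log2 fold change of all genes was 0.22.

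Members that did not pass changed sign in places. Ggps1 stood at 0.10 with library totals, 0.22 and 0.16 in the deposited RPKM with pseudocounts of 0.1 and 1, 0.13 with quality weights, 0.00378 with the replicate block, 0.19 without Jag1+/+ replicate 1, 0.02 without Jag1Ndr/Ndr replicate 1, and -0.15 to 0.19 over the libraries left out in turn. Sc5d stood at -0.13 without Jag1+/+ replicate 2 and -0.000605 without Jag1Ndr/Ndr replicate 1, within -0.13 to 0.15 over the libraries left out. Mbtps2 stood at 0.11 with library totals and with quality weights, 0.12 and 0.14 in the deposited RPKM, and 0.20 without Jag1Ndr/Ndr replicate 1, within -0.29 to 0.20 over the libraries left out. Mylip stood at 0.0681 and 0.0758 in the deposited RPKM.

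With the replicate number as a block, 17 members rose and 1430 genes changed; Tm7sf2 lost its call (edgeR adjusted p = 0.0585). Deviations from the genotype means correlated at 0.0856, 0.170 and 0.195 for numbers 1, 2 and 3, and every library correlated best with its own number, but the labels do not say what a number shares. Low depth limits Idi1, with 9 to 25 reads in Jag1+/+ libraries.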
